A study of Mus musculus with 12 samples.

Results

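The Wnt genes were read on 12 microarrays from mouse embryonic fibroblasts in the first days of reprogramming. Members were the genes of the Wnt, Fzd, Sfrp and Dkk families together with Lef1, Tcf7l1, Tcf7l2, Pygo1, Pygo2, Axin1, Axin2, Lrp5, Lrp6, Ctnnb1, Bcl9 and Bcl9l, taken from probe sets that name a single gene. There were 50 such genes among 22180, read by 53 probe sets. For the 3 genes with several, the one of highest mean signal was used. They were 19 ligands, 12 receptors, 8 secreted antagonists, 3 genes for β-catenin and Axin, 7 nuclear effectors and 1 antisense RNA, Fzd10os, which the family pattern takes in by its name although it encodes no receptor. Tcf7 was not analysed here.

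All cells came from E13.5 embryos of a strain labelled with C57Bl/6 and 129X1/SvJ, and carried Col1a1::tetOP-OKSM and R26-M2rtTA. The first is a doxycycline-driven cassette for Oct4, Klf4, Sox2 and c-Myc, and the second places the transactivator that doxycycline switches on at the Rosa26 locus. A retrovirus delivered a hairpin against Chaf1a, the large subunit of the histone chaperone CAF-1, or against Renilla luciferase, and doxycycline was given for 3 or 6 days in medium with serum and LIF. The 4 groups, day 3 control, day 3 knockdown, day 6 control and day 6 knockdown, had 3 arrays each, and all of them carried the cassette and received doxycycline, so no uninduced fibroblast was measured. Nothing in the labels ties the replicates to separate embryos or cultures, and p-values then measure only the spread between these samples, which may be technical.

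Wnt proteins are secreted lipid-modified ligands. They bind Frizzled receptors, and with the co-receptors Lrp5 and Lrp6 they stop the Axin-based destruction complex from degrading β-catenin, the product of Ctnnb1. Stabilised β-catenin enters the nucleus, joins the DNA-binding proteins Lef1 and Tcf7l1 or Tcf7l2, and recruits Bcl9 and Pygo proteins as co-activators. Sfrp proteins bind Wnt ligands outside the cell and Dkk1 blocks Lrp5 and Lrp6. In embryonic stem cells Tcf7l1 is known mainly as a repressor of pluripotency genes, a repression that β-catenin relieves.

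Values are log2 of the deposited array intensity. A gene was tested when it reached its array's own 30th percentile, a log2 value of 4.30 to 4.38, in at least 3 arrays, which 17860 genes did. Of the 50 members 48 were tested. The 2 left out were Fzd10, a receptor between 3.85 and 4.26 on all arrays, and Wnt8b, a ligand between 4.02 and 4.51. Differences were tested with limma over all 17860 genes, and a gene was called at an adjusted p of at most 0.05. Signals of different probe sets are not on a common scale of RNA amount, so a higher signal of 1 gene than of another does not mean more RNA. In each role the member whose probe set was brightest is shown on every array. Of the 11 fibroblast markers with a probe set 10 were tested, and Lum was below the low-value level (mean 3.79). Chaf1a itself was lower in knockdown arrays by a log2 fold change of −0.29 at day 3 (adjusted p = 0.726) and −0.12 at day 6 (adjusted p = 0.999) and was not called on either day. Directions between hairpins rest on that label.

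Between day 3 and day 6 most of the Wnt genes called were receptors and nuclear effectors, joined in control cells by antagonists, and nearly all went up. In control cells 12 of 48 members rose (25%) and 0 fell, where 17.6% of all tested genes were called, 6.99% higher and 10.6% lower. In knockdown cells 9 rose (18.8%) and 2 fell (4.17%), where 17.9% of all genes were called, 7.46% higher and 10.5% lower. The genes that rose under both hairpins were Wnt16, Fzd1, Fzd2, Fzd4, Lrp6, Sfrp1, Tcf7l1 and Tcf7l2, which are 8 of the 12 in control and 8 of the 9 in knockdown. The median log2 fold change of the 48 members was 0.06 in control and 0.09 in knockdown, beside 0.01 for all genes in both. Without day 6 control replicate 1 the control count was 6, and without day 3 control replicate 3 it was 7. The knockdown count was 7 without day 6 knockdown replicate 2 and 7 without day 3 knockdown replicate 3. In bulk RNA, fewer cells of a type and less RNA per cell cannot be told apart.

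**Figure D1:**
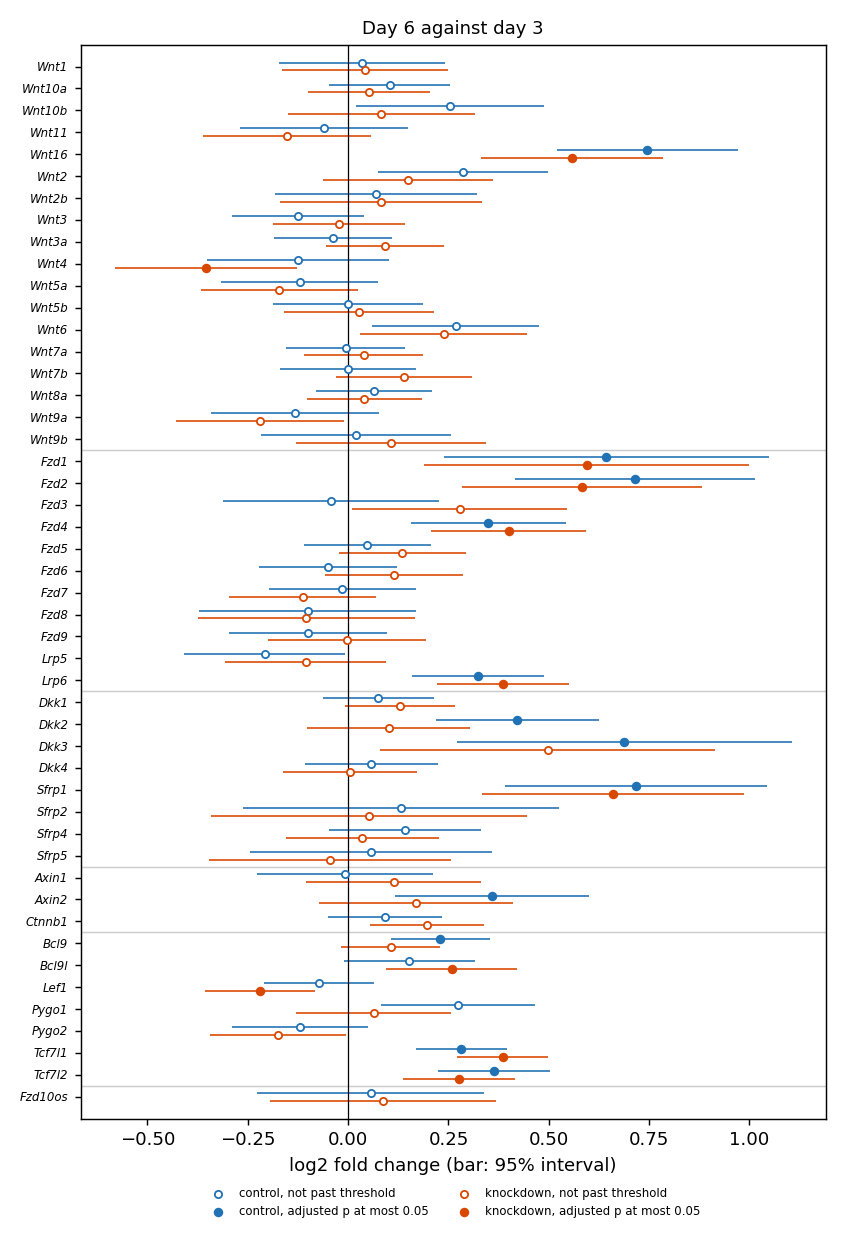
Log2 fold change of day 6 against day 3 for the 48 tested members, ordered by role with grey lines between roles, in control (blue) and knockdown (orange) arrays, 3 against 3 in each. Bars are 95% intervals and filled points have an adjusted p of at most 0.05, of which 12 lie right of 0 in control, and 9 right and 2 left of 0 in knockdown.

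Among the 18 tested ligands, Wnt16 rose under both hairpins and Wnt4 fell in knockdown cells. Wnt16 stood at 5.68, 5.85 and 5.84 in day 3 control arrays and at 6.37, 6.77 and 6.46 in day 6 control arrays. In knockdown arrays it stood at 6.03, 5.93 and 5.74 at day 3 and at 6.55, 6.39 and 6.43 at day 6. Every day 6 array lay above every day 3 array under each hairpin. The rise was 1.68-fold in control (log2 fold change 0.75, SE 0.10, adjusted p = 5.25e-04) and 1.47-fold in knockdown (0.56, SE 0.10, adjusted p = 0.00302), and both calls held with any single array left out.

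Wnt4, a ligand best known from kidney and gonad development, read 6.69, 6.85 and 7.00 in day 3 knockdown arrays and 6.62, 6.41 and 6.44 at day 6. The groups did not overlap, with a fall of 1.28-fold (−0.35 on the log2 scale, SE 0.10, adjusted p = 0.0342), although replicate 1 differed by only −0.07. In control arrays Wnt4 went from 6.72 ± 0.18 (SD, n = 3) to 6.60 ± 0.11, a log2 fold change of −0.12 that was not called (adjusted p = 0.474). The change in knockdown differed from that in control by −0.23, which was not called (SE 0.15, adjusted p = 0.990). The Wnt4 call in knockdown was lost without day 3 knockdown replicate 2 (−0.35, adjusted p = 0.0779) or replicate 3 (−0.28, 0.130), and without day 6 knockdown replicate 2 (−0.31, 0.115) or replicate 3 (−0.33, 0.0942).

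The ligand with the highest signal, Wnt5a, which acts mainly through β-catenin-independent routes, was not called. It read 7.45, 7.72 and 7.50 in day 3 control, 7.60, 7.58 and 7.51 in day 3 knockdown, 7.48, 7.44 and 7.39 in day 6 control, and 7.56, 7.38 and 7.22 in day 6 knockdown arrays. Groups overlapped between hairpins on both days. The remaining 15 tested ligands were not called between days. Among them Wnt2 (log2 fold change 0.29 in control, adjusted p = 0.0634, and 0.15 in knockdown) and Wnt6 (0.27, adjusted p = 0.0757, and 0.24) came nearest in control. Wnt3a, a standard activator of β-catenin signalling, stayed between 5.13 and 5.40 on all arrays, and Wnt1 between 5.05 and 5.49.

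Of the 11 tested receptors 4 rose under each hairpin, and they were the same 4, Fzd1, Fzd2, Fzd4 and Lrp6. Fzd2, a Frizzled of mesenchymal cells, read 6.63, 6.65 and 6.53 in day 3 control arrays and 7.53, 7.34 and 7.08 at day 6. In knockdown arrays it read 6.74, 6.75 and 6.34 at day 3 and 7.40, 7.19 and 6.98 at day 6. No day 3 array reached a day 6 array under either hairpin. Fzd2 rose 1.64-fold in control (log2 fold change 0.71, SE 0.14, adjusted p = 0.00385) and 1.50-fold in knockdown (0.58, SE 0.14, adjusted p = 0.0117).

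Fzd1, a close relative of Fzd2, read 7.95, 8.08 and 8.16 in day 3 control arrays and 9.08, 8.73 and 8.30 at day 6. Its knockdown arrays read 7.95, 8.08 and 7.90 at day 3 and 8.92, 8.59 and 8.21 at day 6. Under both hairpins replicate 1 was the highest day 6 array and replicate 3 the lowest, and the same-number differences in control ran from 0.14 to 1.13. The log2 fold change was 0.64 (SE 0.19, adjusted p = 0.0317) in control and 0.59 (SE 0.19, adjusted p = 0.0439) in knockdown. Leaving out any of 5 arrays ended the control call: day 3 control replicate 1 (0.59, adjusted p = 0.0883), replicate 2 (0.65, 0.0820) or replicate 3 (0.69, 0.0558), and day 6 control replicate 1 (0.46, 0.133) or replicate 2 (0.63, 0.0822). The knockdown call held in 3 of 12 such fits, those without day 6 control replicate 1 or 3 or day 6 knockdown replicate 3, and the highest adjusted p was 0.152, without day 6 knockdown replicate 1 (0.42).

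Fzd4, which is also the receptor for norrin, read 6.85, 6.94 and 6.75 in day 3 control arrays, 6.67, 6.57 and 6.62 in day 3 knockdown arrays, 7.23, 7.31 and 7.06 in day 6 control arrays and 7.20, 6.98 and 6.89 in day 6 knockdown arrays. Both day 6 groups lay above their day 3 groups. It rose by a log2 fold change of 0.35 in control (SE 0.09, adjusted p = 0.0174) and 0.40 in knockdown (SE 0.09, adjusted p = 0.00819). The control call was lost without day 6 control replicate 1 (0.34, adjusted p = 0.0607) or replicate 2 (0.29, 0.0722) and without day 3 control replicate 3 (0.30, 0.0687).

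Lrp6, the co-receptor that docks Axin once a ligand binds, was the receptor with the highest signal. It read 9.75, 9.84 and 9.71 in day 3 control arrays and 10.22, 10.04 and 10.01 at day 6, and 9.74, 9.66 and 9.68 in day 3 knockdown arrays and 10.19, 10.09 and 9.96 at day 6. All 6 day 6 arrays lay above all 6 day 3 arrays. The rise was 1.25-fold in control (0.32, SE 0.08, adjusted p = 0.0111) and 1.31-fold in knockdown (0.39, SE 0.08, adjusted p = 0.00392). Without day 6 control replicate 1 the control value was 0.26 (adjusted p = 0.0526). A second Lrp6 probe set, with means of 6.44 to 6.65, differed between days by 0.00 in control and 0.17 in knockdown. With the mean of both probe sets the log2 fold change was 0.16 in control (adjusted p = 0.292) and 0.28 in knockdown (adjusted p = 0.0699), so the Lrp6 calls rest on 1 of its probe sets.

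The other co-receptor, Lrp5, went from 8.97 ± 0.22 to 8.76 ± 0.06 in control and from 8.91 ± 0.05 to 8.80 ± 0.05 in knockdown arrays and was not called. Fzd7, a receptor known from embryonic stem cells, lay between 8.90 and 9.22 on all 12 arrays and was not called in any comparison. Fzd3, Fzd5, Fzd6, Fzd8 and Fzd9 were also not called, with log2 fold changes between days from −0.10 to 0.28 over both hairpins.

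Among the 8 secreted antagonists, Sfrp1 rose under both hairpins, and Dkk2 and Dkk3 in control cells. All 8 had a positive log2 fold change in control and 7 in knockdown, but most were not called. The 5 not called in control ran from 0.06 (Sfrp5) to 0.14 (Sfrp4), and in knockdown only Sfrp1 was called. Sfrp1, the antagonist with the highest signal, read 10.06, 10.31 and 9.99 in day 3 control arrays and 11.05, 10.88 and 10.59 at day 6. In knockdown arrays it read 10.22, 10.48 and 10.12 at day 3 and 11.19, 10.96 and 10.65 at day 6. Day 6 arrays lay above day 3 arrays under both hairpins. Sfrp1 rose 1.64-fold in control (0.72, SE 0.15, adjusted p = 0.00614) and 1.58-fold in knockdown (0.66, SE 0.15, adjusted p = 0.00934), and these calls held with any single array left out, as did those of Fzd2 under both hairpins.

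Dkk3, a Dickkopf relative that does not act as a typical Lrp6 blocker, read 7.28, 6.95 and 7.17 in day 3 control arrays and 8.17, 7.72 and 7.58 at day 6. Its knockdown arrays read 7.38, 7.14 and 7.37 at day 3 and 8.28, 7.59 and 7.51 at day 6. Replicate 1 was the highest at day 6 under both hairpins, as for Fzd1, Fzd2 and Sfrp1. The log2 fold change was 0.69 in control (SE 0.19, adjusted p = 0.0274) and 0.50 in knockdown (SE 0.19, adjusted p = 0.0964). These changes differed by −0.19, which was not called (SE 0.27, adjusted p = 0.991). The replicate numbers were taken to pair the samples, and with the replicate number as a block Dkk3 was called in knockdown as well (SE 0.13, adjusted p = 0.0175). Its control call was lost without day 6 control replicate 1 (0.51, adjusted p = 0.117) or replicate 2 (0.74, 0.0507), and without day 3 control replicate 2 (0.60, 0.107) or replicate 3 (0.71, 0.0604).

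Dkk2, which binds Lrp6, read 5.75, 5.60 and 5.69 in day 3 control arrays and 6.26, 6.04 and 6.00 at day 6, and rose 1.34-fold (0.42, SE 0.09, adjusted p = 0.0086). In knockdown arrays it read 5.68, 5.88 and 5.95 at day 3 and 5.84, 5.88 and 6.08 at day 6, groups that overlapped (0.10, adjusted p = 0.518). The difference between these changes, −0.32, was not called (SE 0.13, adjusted p = 0.972). Sfrp2, an antagonist abundant in fibroblasts, was highest in replicate 1 of every group (8.64, 8.51, 8.84 and 8.45) and was not called. Dkk1, the classical Lrp6 inhibitor, stayed between 5.12 and 5.40, and Dkk4, Sfrp4 and Sfrp5 were not called between days.

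**Figure D2:**
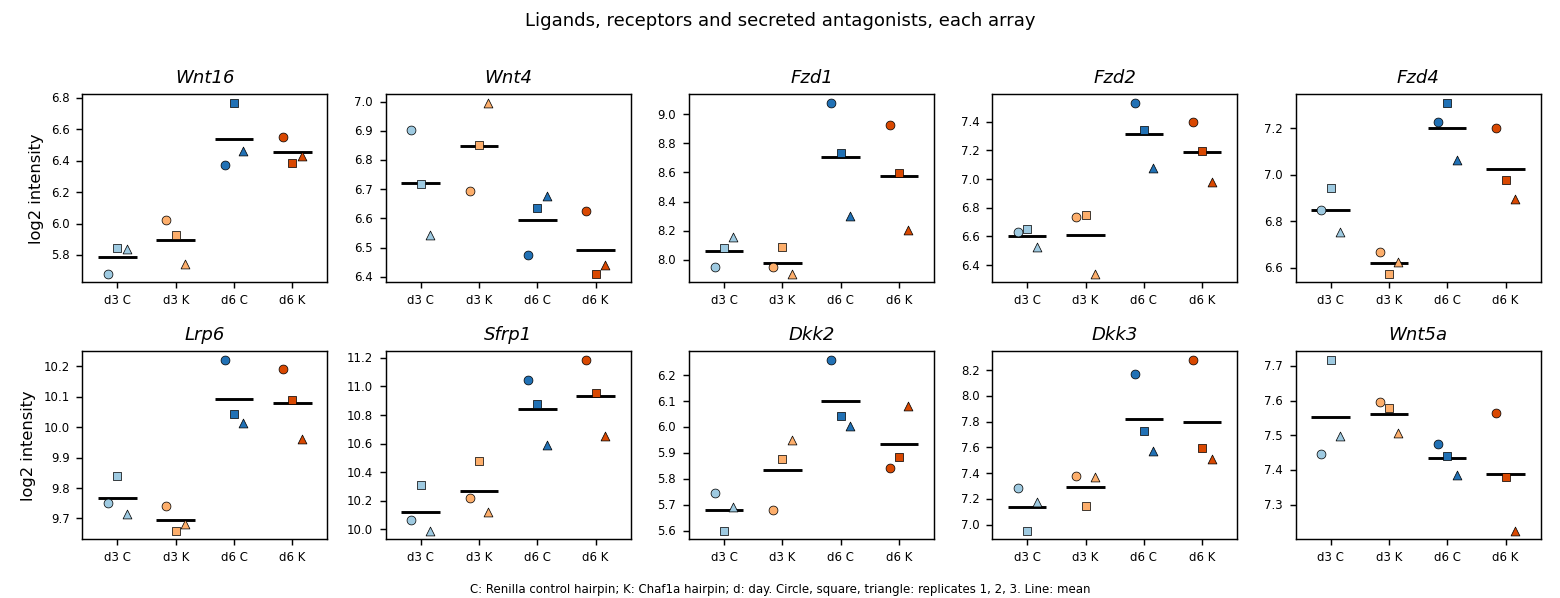
Log2 intensity on each of the 12 arrays for 10 ligands, receptors and antagonists, 1 panel per gene with its own axis. Marker shape gives the replicate number and lines are means of 3 arrays. Replicate 1 (circle) is the highest day 6 array under both hairpins for Fzd1, Fzd2, Dkk3 and Sfrp1, and Wnt16 separates day 3 from day 6.

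Of the genes for β-catenin and the Axins, only Axin2 was called between days, in control cells, while its second probe set went up under both hairpins. Ctnnb1 had the highest signal of these 3 genes, with 10.94, 11.13 and 10.90 in day 3 control, 10.98, 10.93 and 10.94 in day 3 knockdown, 11.12, 11.09 and 11.04 in day 6 control, and 11.16, 11.18 and 11.10 in day 6 knockdown arrays. Day 6 lay above day 3 in knockdown without overlap, but the log2 fold change of 0.20 was not called (adjusted p = 0.0555), nor was that of 0.09 in control. Axin1, the constitutive scaffold of the destruction complex, was not called.

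Axin2 is a direct target of β-catenin signalling that feeds back on it, and is widely read as a reporter of the pathway. It read 6.28, 5.85 and 6.22 in day 3 control arrays and 6.48, 6.47 and 6.47 at day 6, and rose 1.28-fold (0.36, SE 0.11, adjusted p = 0.0437). In knockdown arrays it read 6.05, 6.17 and 6.16 at day 3 and 6.09, 6.38 and 6.43 at day 6, which was not called (0.17, adjusted p = 0.344). The changes under the hairpins differed by −0.19, which was not called either (SE 0.16, adjusted p = 0.991). The control call held in 3 of 12 fits that left out 1 array, those without day 3 control replicate 1 or day 6 knockdown replicate 1 or 3. The highest adjusted p was 0.159, without day 3 control replicate 2 (0.22). A second Axin2 probe set went from 5.85 ± 0.05 to 6.37 ± 0.25 in control and from 5.91 ± 0.09 to 6.44 ± 0.17 in knockdown arrays. Its differences were 0.52 in control and 0.53 in knockdown, so a rise called in control alone rests on the probe set used. With the mean of both probe sets Axin2 was called in control at 0.44 (adjusted p = 0.00303), and with p-values adjusted over all probe sets the value of 0.36 was not (adjusted p = 0.0845).

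Nuclear effectors rose in 3 of 7 cases under each hairpin, and Lef1 fell in knockdown cells. Tcf7l1, with the highest signal of the 7, read 9.71, 9.78 and 9.77 in day 3 control arrays and 10.04, 10.07 and 10.01 at day 6. In knockdown arrays it read 9.79, 9.76 and 9.76 at day 3 and 10.16, 10.20 and 10.11 at day 6. Arrays of 1 group lay close together, and every day 6 array was above every day 3 array. Tcf7l1 rose 1.22-fold in control (0.28, SE 0.05, adjusted p = 0.00323) and 1.31-fold in knockdown (0.39, SE 0.05, adjusted p = 4.09e-04).

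Tcf7l2, which acts as activator or repressor with β-catenin, read 8.50, 8.43 and 8.54 in day 3 control arrays and 8.88, 8.82 and 8.86 at day 6, and 8.66, 8.61 and 8.51 in day 3 knockdown arrays and 8.96, 8.85 and 8.80 at day 6. All day 6 arrays lay above all day 3 arrays. It rose 1.29-fold in control (0.36, SE 0.06, adjusted p = 0.00231) and 1.21-fold in knockdown (0.28, SE 0.06, adjusted p = 0.0104). Calls for Tcf7l1 and Tcf7l2 held under both hairpins with any single array left out.

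The Bcl9 proteins, which bridge β-catenin to Pygo, were each called under 1 hairpin. Bcl9 read 8.54, 8.67 and 8.58 in day 3 control arrays and 8.89, 8.80 and 8.80 at day 6 (0.23, SE 0.06, adjusted p = 0.0152), and went from 8.61 ± 0.04 to 8.72 ± 0.01 in knockdown arrays (0.11, adjusted p = 0.235). Its call was lost without day 3 control replicate 1 (0.20, adjusted p = 0.0518) or replicate 3 (0.22, 0.0501) and without day 6 control replicate 1 (0.20, 0.0673). Bcl9l read 7.82, 7.97 and 7.87 in day 3 knockdown arrays and 8.16, 8.17 and 8.11 at day 6 (0.26, SE 0.08, adjusted p = 0.0328), and went from 8.00 ± 0.06 to 8.15 ± 0.15 in control (0.15, adjusted p = 0.199). Leaving out day 3 knockdown replicate 1 (0.23, adjusted p = 0.108) or 3 (0.25, 0.0876), or day 6 knockdown replicate 1 (0.25, 0.0769), 2 (0.25, 0.0924) or 3 (0.28, 0.0564) ended the Bcl9l call. Tests of the differences between hairpins for both genes gave an adjusted p of 0.990 and 0.991.

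**Figure D3:**
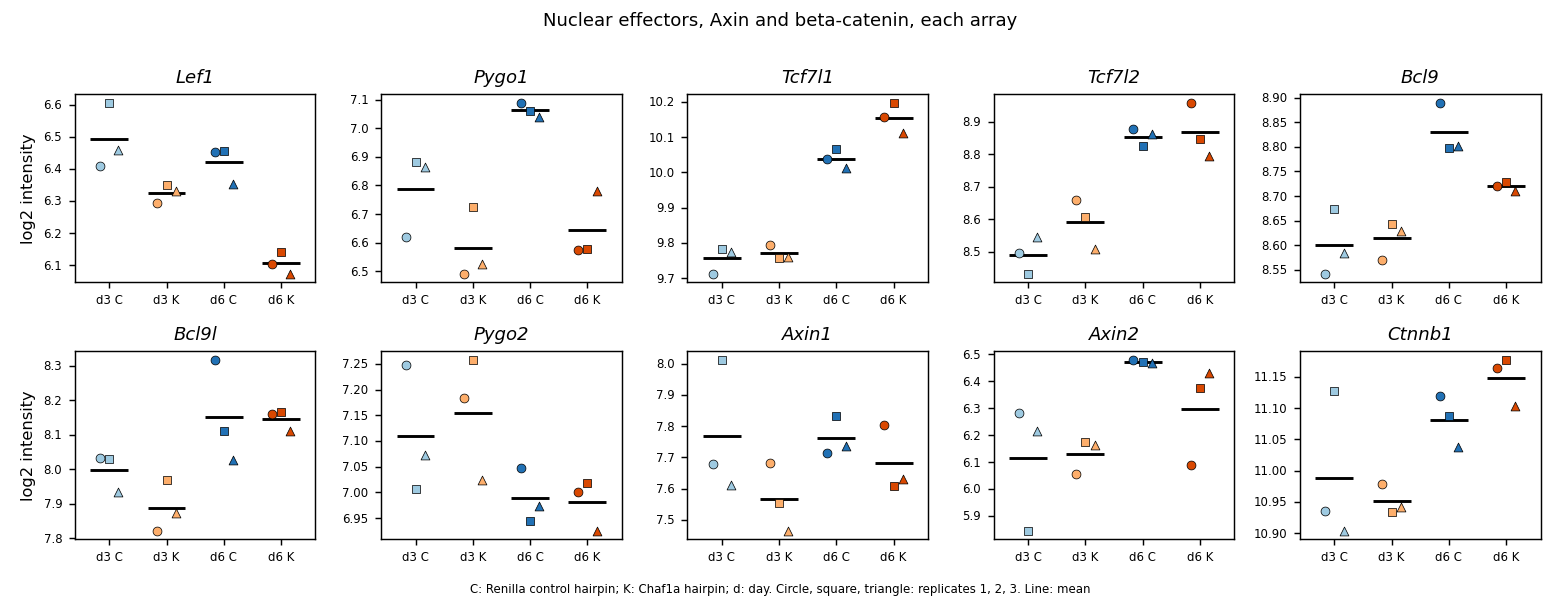
Log2 intensity on each of the 12 arrays for the 7 nuclear effectors, Axin1, Axin2 and Ctnnb1, 1 panel per gene with its own axis. Marker shape gives the replicate number and lines are means of 3 arrays. Lef1 is lower in knockdown than in control on both days without overlap, Pygo1 is lower without overlap at day 6, and Tcf7l1 separates the days.

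Between hairpins, Lef1 and Pygo1 were the members with the smallest p-values on the lower side at day 6, and no member was called on either day. At day 6 0 of 48 members were called, where 0.0392% of all genes were, and 4 members had an unadjusted p under 0.05 (8.33%, against 4.44% of all genes). Groups did not overlap for 7 members (14.6%, against 10.6% of all genes): Lef1, Pygo1, Wnt10b, Axin2 and Bcl9 were lower in knockdown, and Fzd6 and Tcf7l1 higher. At day 3 0 of 48 were called (0% of all genes), with 4 at an unadjusted p under 0.05 (8.33%, against 6.01%) and 4 without overlap (8.33%, against 10.8%). The median log2 fold change was −0.03 at day 6 and −0.01 at day 3, beside −0.01 and −0.01 for all genes. Half-widths of the 95% interval had a median of 0.20 over the members.

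Lef1, the lymphoid enhancer factor, is itself often induced by Wnt signals. It read 6.41, 6.61 and 6.46 in day 3 control and 6.29, 6.35 and 6.33 in day 3 knockdown arrays, and 6.45, 6.45 and 6.35 in day 6 control and 6.10, 6.14 and 6.07 in day 6 knockdown arrays. The knockdown arrays lay below the controls on both days without overlap. The difference was 1.24-fold lower at day 6 (log2 fold change −0.31, SE 0.06, 95% interval −0.45 to −0.18, unadjusted p = 2.92e-04, adjusted p = 0.262) and 1.12-fold lower at day 3 (−0.17, SE 0.06, adjusted p = 0.765). Over 25 other settings the day 6 value ran from −0.35 to −0.30 and the adjusted p from 0.166 to 1.00, none of them a call. In time, Lef1 fell in knockdown cells from 6.33 ± 0.03 to 6.11 ± 0.03 (−0.22, SE 0.06, adjusted p = 0.0304) and went from 6.49 ± 0.10 to 6.42 ± 0.06 in control (−0.07, adjusted p = 0.497). Those changes differed by −0.15, which was not called (SE 0.09, adjusted p = 0.990). Leaving out any 1 of the 6 knockdown arrays ended the Lef1 call over time, with values of −0.24 to −0.20 and adjusted p from 0.0519 to 0.0877.

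Pygo1, a PHD-finger protein that reads methylated histone H3 and binds Bcl9, read 6.62, 6.88 and 6.87 in day 3 control and 6.49, 6.72 and 6.53 in day 3 knockdown arrays. At day 6 it read 7.09, 7.06 and 7.04 in control and 6.57, 6.58 and 6.78 in knockdown arrays. Groups overlapped at day 3, where 3 of 3 same-number pairs had the lower value in knockdown, and did not overlap at day 6. The log2 fold change was −0.42 at day 6 (1.34-fold lower, SE 0.09, 95% interval −0.61 to −0.23, unadjusted p = 4.55e-04, adjusted p = 0.292) and −0.21 at day 3 (SE 0.09, adjusted p = 0.791). The other settings gave −0.50 to −0.37 at day 6 with adjusted p from 0.232 to 0.990. Over time Pygo1 went up by 0.27 in control (adjusted p = 0.0516, and 0.042 with the replicate block, where it was called) and by 0.06 in knockdown (adjusted p = 0.682). Without day 3 knockdown replicate 2 or day 6 knockdown replicate 3 the control value also passed (adjusted p = 0.0414 and 0.0435). Pygo2, its paralogue, lay between 6.93 and 7.26 on all arrays and was not called.

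The other members with the smallest p-values between hairpins, or with groups that did not overlap, were far from the threshold. At day 6 Tcf7l1 was higher by 0.12 (adjusted p = 0.999) and Fzd6 by 0.16 (adjusted p = 0.999). Wnt10b, a ligand that restrains fat cell formation, went from 5.02 ± 0.08 in control to 4.68 ± 0.20 in knockdown arrays (−0.34, unadjusted p = 0.00775, adjusted p = 0.948). Axin2 was 6.47 ± 0.01 in day 6 control and 6.30 ± 0.18 in day 6 knockdown arrays (−0.17, adjusted p = 0.999), and its second probe set differed by 0.07 in the other direction. At day 3 Fzd4 was lower by −0.23 (adjusted p = 0.765), while Sfrp4, a secreted antagonist, was higher by 0.22 (adjusted p = 0.765) and Wnt10a by 0.14 (adjusted p = 0.855). The knockdown effect differed between days for 0 of 48 members (0% of all genes). There, 1 member, Dkk2, had an unadjusted p under 0.05 (2.08%, against 5.1% of all genes), and Fzd3 (0.32) and Fzd6 (0.17) came nearest on the positive side and Pygo1 (−0.21) was the second on the negative side.

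**Figure D4:**
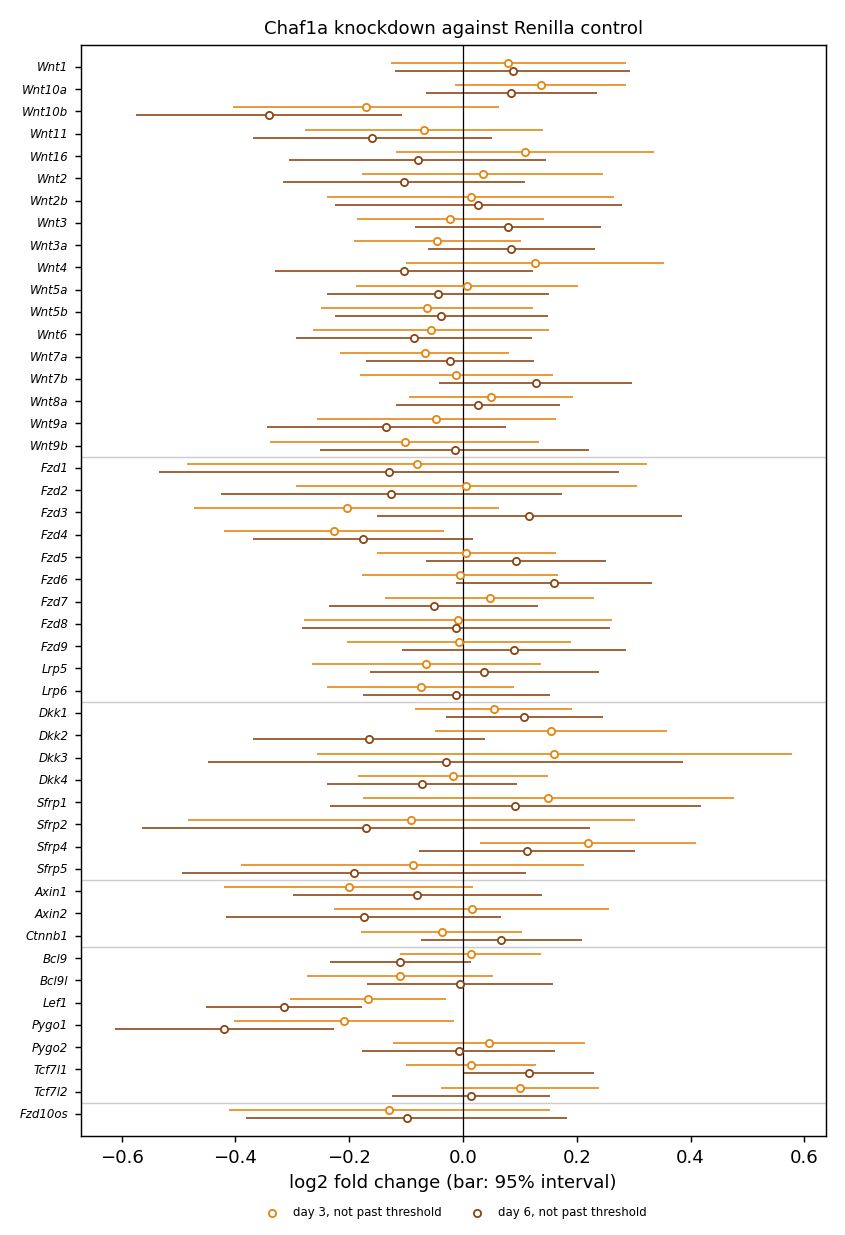
Log2 fold change of Chaf1a knockdown against Renilla control at day 3 (light) and day 6 (dark) for the 48 tested members, ordered by role with grey lines between roles, 3 arrays against 3. Bars are 95% intervals and open points did not pass the threshold. At day 6 the intervals of Lef1, Pygo1 and Wnt10b lie wholly below 0 and that of Tcf7l1 wholly above. At day 3 those of Lef1, Pygo1 and Fzd4 lie wholly below 0 and that of Sfrp4 wholly above.

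Promoter sequence is shown for 4 effectors. Lef1 and Pygo1 were not called between hairpins, and Tcf7l1 and Tcf7l2 were called between days under both hairpins. Each run is the 250 bases before a RefSeq start on GRCm38.p6, 5′ to 3′ on the gene's strand. The letters CTTTGAT and CTTTGTT, forms of the TCF and LEF recognition sequence, were searched on both strands, and capitals mark a match. The Lef1 run ends just before the gene's first start (chr3:131110047-131110296, plus strand), and so does that of Pygo1 (chr9:72925395-72925644, plus strand). Lef1 has further promoters, which hold no match and are not printed. The Tcf7l1 run is chr6:72789046-72789295 on the minus strand. Tcf7l2 has 2 promoters in the table. The one at its 5′ end (chr19:55741560-55741809) reaches just past the gene's first base, chr19:55741797. It holds no match and is not printed. The run shown lies before a start inside the gene (chr19:55895071-55895320, plus strand) and was picked because it holds one.
Lef1: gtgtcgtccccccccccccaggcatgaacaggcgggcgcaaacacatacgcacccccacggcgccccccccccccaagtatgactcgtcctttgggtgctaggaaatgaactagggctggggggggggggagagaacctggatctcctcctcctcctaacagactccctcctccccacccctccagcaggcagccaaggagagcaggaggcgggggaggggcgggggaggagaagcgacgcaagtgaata
Pygo1: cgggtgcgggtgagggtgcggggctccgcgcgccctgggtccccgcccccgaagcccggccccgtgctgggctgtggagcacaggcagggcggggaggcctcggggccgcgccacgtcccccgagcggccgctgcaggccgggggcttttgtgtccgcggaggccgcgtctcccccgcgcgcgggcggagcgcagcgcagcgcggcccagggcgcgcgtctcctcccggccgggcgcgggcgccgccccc
Tcf7l1: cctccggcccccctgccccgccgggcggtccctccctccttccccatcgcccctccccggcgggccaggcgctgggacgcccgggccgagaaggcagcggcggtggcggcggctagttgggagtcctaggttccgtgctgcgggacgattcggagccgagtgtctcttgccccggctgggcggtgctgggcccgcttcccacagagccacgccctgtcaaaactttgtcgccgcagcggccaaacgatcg
Tcf7l2: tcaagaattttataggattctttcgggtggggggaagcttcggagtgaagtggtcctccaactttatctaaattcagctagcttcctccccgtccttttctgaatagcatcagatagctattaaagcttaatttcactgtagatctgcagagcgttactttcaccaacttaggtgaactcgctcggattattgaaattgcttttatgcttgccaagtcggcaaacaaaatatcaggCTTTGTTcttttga
Tcf7l2 holds 1 match, CTTTGTT, whose first base lies 14 bases before that start. The runs of Lef1, Pygo1 and Tcf7l1 hold these letters nowhere, which says nothing of binding elsewhere. RefSeq promoters were at hand for 33 of the 50 members, and 5 of them (15.2%) had a match in at least 1 promoter, Dkk1, Fzd7, Tcf7l2, Wnt11 and Wnt5b, against 9.21% of 27025 genes. Of those 5 genes Tcf7l2 was called between days. Over single promoters 5 of 43 of the members (11.6%) held a match, against 8.06% of all 32851. The letters CTTTGAT were found in 3.21% of the 32851 and CTTTGTT in 5.03%.

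The rest of the pathway was read from lists of 109 other Wnt genes, of which 106 had a probe set and 104 were tested. Between hairpins 0 of 104 were called at day 3 and at day 6, with 5 (4.81%, against 6.01% of all genes) and 6 (5.77%, against 4.44%) at an unadjusted p under 0.05. Between days 15 rose (14.4%, against 6.99% of all genes) and 9 fell (8.65%, against 10.6%) in control. In knockdown 21 rose (20.2%, against 7.46%) and 10 fell (9.62%, against 10.5%). Counts between days for the lists and markers below stand against these same shares of all genes. The median log2 fold change of the 104 was 0.07 in control and 0.08 in knockdown, beside 0.01 for all genes.

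Of 18 genes for ligand secretion, R-spondins and alternative receptors, 4 rose and 2 fell in control and 5 rose and 2 fell in knockdown. Porcn, the acyltransferase that adds the lipid every Wnt needs for secretion, rose from 8.05 ± 0.06 to 8.83 ± 0.08 in control (1.71-fold, adjusted p = 1.55e-05) and from 8.21 ± 0.05 to 8.96 ± 0.07 in knockdown (1.69-fold, adjusted p = 1.39e-05). Rspo2, a secreted agonist that keeps Frizzled receptors on the cell surface, rose 1.64-fold in control (adjusted p = 2.90e-04) and 1.49-fold in knockdown (adjusted p = 0.0011). Gpc3, a cell-surface proteoglycan, fell by a log2 fold change of −0.82 in control (adjusted p = 0.00701) and −0.90 in knockdown (adjusted p = 0.00388).

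Among 9 tested inhibitors outside the Sfrp and Dkk families, 3 rose and 1 fell in control and 2 rose and 1 fell in knockdown. Igfbp4, a secreted binding protein that can block Wnt receptors, rose 1.79-fold in control (adjusted p = 0.00376) and 1.57-fold in knockdown (adjusted p = 0.0147). Kremen1, the receptor that removes Lrp6 together with Dkk1, fell by −0.38 (adjusted p = 0.00547) and −0.43 (adjusted p = 0.0023). Frzb and Cer1 were below the low-value level.

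Of 22 cytoplasmic genes 1 rose (Dact1) and 1 fell (Tnks) in control, and 3 rose and 0 fell in knockdown, among them Gsk3b, the kinase that marks β-catenin for degradation (0.24, adjusted p = 0.021). Of 18 other nuclear genes 2 rose and 1 fell in control, and 5 rose and 1 fell in knockdown. Ctnnbip1, which blocks β-catenin from binding TCF proteins, fell by −0.56 in control (adjusted p = 0.00361) and −0.34 in knockdown (adjusted p = 0.0449). Tle4, a Groucho co-repressor of TCF proteins, rose from 8.20 ± 0.21 to 8.82 ± 0.13 in knockdown (adjusted p = 0.00219) and went from 8.30 ± 0.04 to 8.64 ± 0.17 in control without passing (adjusted p = 0.0518).

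Planar polarity genes split in both directions, with 3 up and 2 down of 18 in control and 4 up and 4 down in knockdown. Celsr1, a polarity cadherin, rose 1.40-fold (adjusted p = 0.00185) and 1.59-fold (adjusted p = 1.94e-04), while Rhoa, a small GTPase, fell by −0.20 (adjusted p = 0.0254) and −0.18 (adjusted p = 0.0436).

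Of 24 genes known as Wnt targets in some tissue, 2 rose and 2 fell under each hairpin. Of all genes 6.99% rose and 10.6% fell in control, and 7.46% rose and 10.5% fell in knockdown, so these counts lie near the general share. The median log2 fold change of the 24 was 0.07 in control and 0.08 in knockdown. Fgf18, a growth factor of skeletal development, rose 2.30-fold in control (1.20, adjusted p = 4.79e-05) and 2.03-fold in knockdown (1.02, adjusted p = 1.21e-04), and Fgf9, a related factor, by 0.57 and 0.61. Vcan, the proteoglycan versican, fell by −1.39 (adjusted p = 2.02e-05) and −1.31 (adjusted p = 2.51e-05), and Cd44, a hyaluronan receptor, by −0.57 and −0.56.

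**Figure D5:**
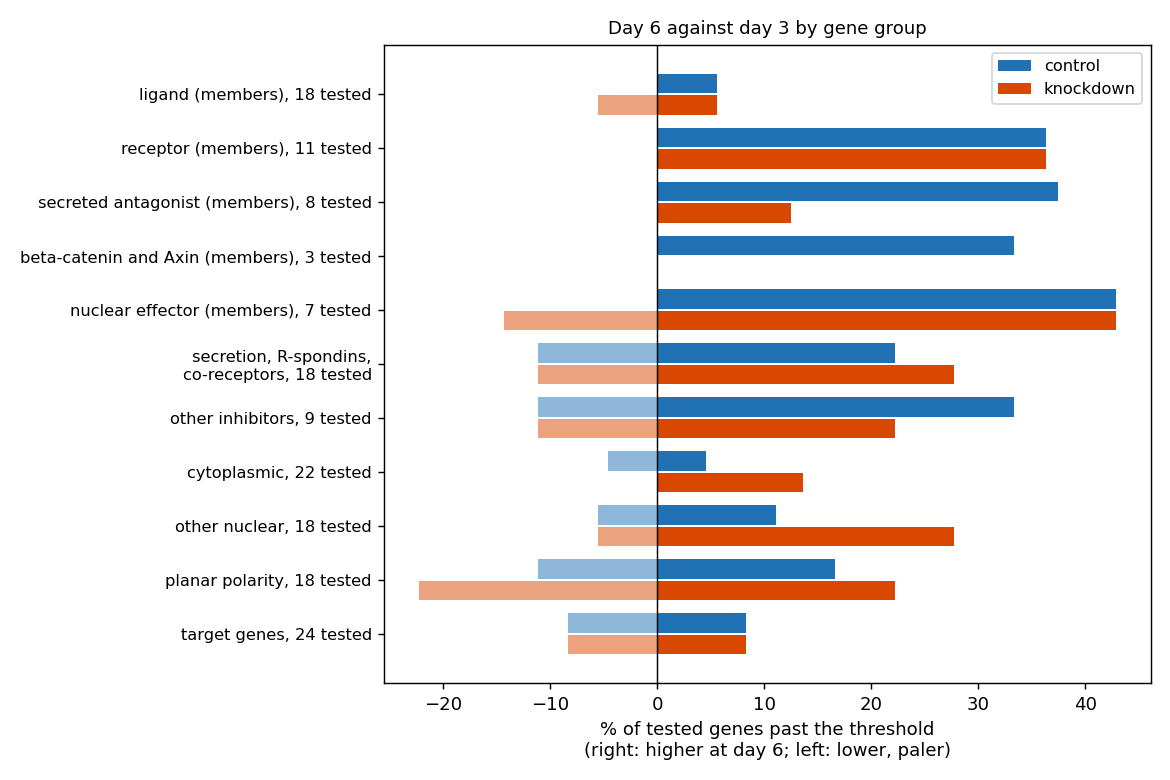
Share of tested genes past the threshold between day 3 and day 6, for 5 roles of the members and 6 lists of other Wnt pathway genes, in control (blue) and knockdown (orange). Bars to the right are genes higher at day 6 and paler bars to the left genes lower. In control, 4 of 11 receptors and 3 of 7 nuclear effectors lie to the right.

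Markers of cell state moved over the same days. Of 12 pluripotency markers 2 rose in control and 7 in knockdown, and their summed intensity ran from 694.2 to 718.4 in day 3 control, 694.4 to 738.6 in day 3 knockdown, 795.2 to 827.7 in day 6 control and 981.9 to 1094.4 in day 6 knockdown arrays. Of 12 epithelial markers 2 rose and 2 fell in control, and 7 rose and 1 fell in knockdown. Their summed intensity was 1306.9 to 1449.9, 1251.8 to 1392.3, 1150.5 to 1182.5 and 1458.9 to 1604.2 in the same order of groups. Between days 8 of the 12 had a positive log2 fold change in control (median 0.13) and 11 in knockdown (median 0.42). The lower sum in day 6 control is therefore not the direction of most of these markers. Of 10 tested fibroblast markers 1 rose under each hairpin (Pdgfrb), with summed intensities of 17150.2 to 17950.5, 17122.6 to 17911.9, 17739.5 to 19683.2 and 16945.7 to 19062.3. At day 6 between hairpins 3 of 12 pluripotency markers and 1 of 12 epithelial markers were higher past the threshold, where 0.0392% of all genes were called. All 10 tested fibroblast markers had a negative log2 fold change there (median −0.07) and 0 of them were called, while 11 of 12 epithelial (median 0.29) and 10 of 12 pluripotency markers (median 0.26) had a positive one. These values stand in the same comparison as those of Lef1 and Pygo1. Of 7 tested macrophage and leukocyte markers 1 fell in control and 2 in knockdown, and Ptprc, which defines leukocytes, was below the low-value level. Between days, 2 endothelial markers rose and 1 fell under each hairpin, 1 neural marker fell under each, and in knockdown 1 muscle and 1 keratinocyte marker rose. The part of these markers in the Wnt results was not tested.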

How the data were processed

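The deposited values are intensities that the authors made with RMA. The submitters' processing notes name Affymetrix Expression Console, version 1.3.0.187. The intensities lie on a linear scale from 4.71 to 13421. RMA shares information across arrays, so the arrays are not wholly independent. Neither the build nor the annotation version is stated in the sources used here. The log2 of each intensity was taken (41345 probe sets, 12 arrays). Of these, 23521 probe sets named 1 gene, 1814 several and 16010 none, by GEO's platform annotation, and only the first were used. limma 3.58.1 in R 4.3.3 was fitted to all 12 arrays with 1 mean for each group. Degrees of freedom were 8 residual and 4.37 prior, tests were two-sided, and p-values were adjusted by Benjamini-Hochberg over 17860 genes. Errors beside means are SDs of 3 arrays, and SE belongs to the log2 fold change. The number of arrays limits the precision. The fit was tested on simulated data with independent arrays and changes larger than any seen in the members. That test does not speak to smaller changes or to paired arrays.

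Deviations from the group means correlated across genes in each of 12 same-number array pairs from groups that were compared (r = 0.137 to 0.373), and the numbers were taken to pair the samples there. The 6 same-number pairs from groups not compared gave r = 0.001 to 0.197. The labels do not say what a number stands for, and the main fit used no replicate block. SEs and p-values come from that fit unless the block or another setting is named. The members and lists were chosen with earlier results of these data known. Values on every array are given for Lef1, Pygo1, up to 12 members called in a comparison of days, smallest adjusted p first, and the member with the highest signal in each role; where no member passed, the 2 with the smallest p in each direction are named. From each list of other Wnt genes up to 4 called members per comparison could be named. Old symbols Aes, Wisp1, Wisp2 and Cyr61 were updated through the RefSeq gene table. Alternatives were other low-value levels, renewed quantile normalisation, array weights, trended and robust variance priors, only the compared groups, a replicate block, the mean of probe sets, all probe sets, and arrays left out. Tables and plots were made with Python 3.11.15, pandas 2.3.3 and matplotlib 3.10.9.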

Additional observations from a re-analysis of the deposited data

How the results depend on the processing

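In the comparisons of hairpins, and of the knockdown effect between days, 0 members were called under every setting tried, the replicate block included. Between days in control, the count of 12 was 13 with the replicate block and 9 to 16 over the 10 settings that kept all arrays, and 1 to 13 with arrays left out. It was 6 without replicate 1, 1 without replicate 2 and 6 without replicate 3 of all groups, fits that keep 2 arrays a group. In knockdown the count of 11 was 12 with the replicate block, 7 to 12 over those settings and 7 with all probe sets adjusted together. With arrays left out it was 3 to 11, and 4, 3 and 6 without replicates 1, 2 and 3 of all groups. The block changed no call other than those of Pygo1 in control and Dkk3 in knockdown. No called member reversed in any setting. The fit on only the compared groups could not give the difference between days. Pygo1 over time in knockdown, which was not called, went from 0.06 to −0.0051 without day 6 knockdown replicate 3 and to −0.032 without replicate 3 of all groups, and its highest value with a single array left out was 0.14, without day 3 knockdown replicate 2. Signals near the low-value level, such as those of Wnt3, Wnt6 and Wnt10b, limit what can be seen of those genes.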

Other observations

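Sfrp2 was read by a second probe set, which stood at 5.47 ± 0.21 (SD, n = 3) in day 3 control, 5.34 ± 0.08 in day 3 knockdown, 5.65 ± 0.12 in day 6 control and 5.40 ± 0.06 in day 6 knockdown arrays. The difference between hairpins at day 6 was −0.25 there and −0.17 in the probe set used above. Fzd10os, the antisense RNA at the Fzd10 locus, lay between 4.22 and 4.84 on all arrays and was not called in any comparison. Fzd8, a receptor that was not called, was highest at day 6 in replicate 1 under both hairpins, at 7.53 in control and 7.57 in knockdown, with the other 4 day 6 arrays between 7.11 and 7.18.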
